A study of Homo sapiens with 12 samples.

Results

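The 35 genes described here carry, bind or sense zinc and manganese in human HepG2 tumour spheroids. They comprised 10 metallothioneins, 24 membrane transporters and the transcription factor gene MTF1. The transporters were 10 members of the SLC30A family and 14 of the SLC39A family. Every gene whose symbol in the platform annotation names one of these families was taken, provided that a probe set carried that symbol alone. The rule reads symbols and no measured value, but the families were picked with earlier results of these data known. These 35 genes stand among 18404 genes measured in the same way. A gene was represented by its brightest such probe set over the arrays. MT2A had 2 probe sets and each of the other 34 genes had 1.

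HepG2 is an established human hepatocellular carcinoma line that keeps many hepatocyte functions. The 12 arrays hold 3 groups of 4: wild type spheroids, spheroids with knockdown of HIF-1α and spheroids with knockdown of HIF-2α, proteins encoded by HIF1A and EPAS1 that are degraded when oxygen is present and drive transcription when it is scarce. All of them were 10 days old, came from stirred flasks with serum-containing medium, and differ in the labels by genotype alone; the labels name no added metal and no set oxygen level. Per the series' design text, a group's arrays came from 4 separate spheroid experiments. RNA was amplified with a kit said to have been applied to 250 microdissected cells, and the place of these cells in the spheroid is not stated in the labels. The sample descriptions call the knockdowns sh1alpha and sh2alpha. The sources used here do not give the method of knockdown, any control construct in the wild type, or whether each line is 1 clone.

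Zinc is a structural and catalytic ion of many proteins, and manganese is a cofactor of enzymes such as the mitochondrial superoxide dismutase and arginase. SLC30A proteins move zinc out of the cytosol, into organelles or out of the cell, and SLC39A proteins move it into the cytosol; a few members of both families carry manganese. Metallothioneins are small cysteine-rich proteins that bind zinc, copper and cadmium, and the liver is one of the organs that makes them in quantity. MTF1 senses free zinc and switches on metallothionein genes and SLC30A1 through short promoter motifs called metal response elements. Glucocorticoids, interleukin 6 and oxidative stress are other known inducers of metallothionein genes.

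The promoters printed here show an element that the rule for choosing these genes did not use. Each is the 250 bases before the transcription start, 5′ to 3′ in the direction of the gene, from RefSeq on GRCh38.p14. Capitals mark the metal response element core, TGCACNC or TGCGCNC on either strand, where N is any base. MT2A, MT1X and MT1H are shown because the results below turn on metallothioneins, and SLC30A1 as the zinc exporter under the same factor. Matches were found by script and are letters, not shown binding sites.
MT2A, chr16:56608334-56608583, plus strand: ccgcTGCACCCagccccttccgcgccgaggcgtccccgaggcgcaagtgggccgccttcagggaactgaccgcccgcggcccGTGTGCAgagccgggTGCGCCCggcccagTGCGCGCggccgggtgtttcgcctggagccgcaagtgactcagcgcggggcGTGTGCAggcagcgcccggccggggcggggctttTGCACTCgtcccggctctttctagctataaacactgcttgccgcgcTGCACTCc
MT1X, chr16:56682220-56682469, plus strand: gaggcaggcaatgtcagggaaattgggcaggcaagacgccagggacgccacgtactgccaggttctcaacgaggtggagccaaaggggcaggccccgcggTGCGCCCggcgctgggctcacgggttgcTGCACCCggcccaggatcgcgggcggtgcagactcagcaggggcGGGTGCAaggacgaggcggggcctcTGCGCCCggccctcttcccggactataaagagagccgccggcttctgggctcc
MT1H, chr16:56669564-56669813, plus strand: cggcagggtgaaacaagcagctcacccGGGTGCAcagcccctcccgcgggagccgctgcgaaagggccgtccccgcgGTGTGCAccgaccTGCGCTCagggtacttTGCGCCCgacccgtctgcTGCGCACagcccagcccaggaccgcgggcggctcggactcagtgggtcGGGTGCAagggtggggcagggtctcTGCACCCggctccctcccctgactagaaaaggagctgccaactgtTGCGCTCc
SLC30A1, chr1:211579162-211579411, minus strand: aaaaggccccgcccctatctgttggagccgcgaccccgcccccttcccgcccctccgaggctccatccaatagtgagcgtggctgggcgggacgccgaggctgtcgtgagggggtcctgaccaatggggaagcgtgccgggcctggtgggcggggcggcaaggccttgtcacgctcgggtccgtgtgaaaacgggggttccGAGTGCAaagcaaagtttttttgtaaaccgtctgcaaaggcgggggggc

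The printed stretch held 7 cores in MT2A, 4 in MT1X, 8 in MT1H and 1 in SLC30A1. Over windows that reach 50 bases past the start as well, the RefSeq promoter table held 36 windows of 27 of the 35 genes. All 5 metallothionein windows in that table had at least 3 cores: 8 for MT2A, 8 for MT1H, 4 for MT1X, 3 for MT1B and 3 for MT4. MT1E, MT1F, MT1G, MT1M and MT3 had no window there, so their promoters were not searched. Among all 35116 windows of the table, 29.6% held at least 1 core, 2.3% at least 3 and 0.0199% at least 8. Of the 30 transporter windows, from 21 genes, 13 held at least 1 core and 1 held 3, that of SLC30A2, which loads zinc into vesicles. SLC30A1 had 2 cores in its window, 1 on each side of the start. Both SLC30A10 windows and the MTF1 window held none.

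The core that the hypoxia-inducible factors bind, ACGTG or GCGTG on either strand, was common in the table. It was present at least once in 24 of the 36 windows and in 48.4% of all windows in the table. Of the 36, 8 had 3 matches, a number reached by 10.1% of all windows: those of MT2A, MT1X, MT1H, SLC30A1, SLC30A4 and SLC30A9 and 1 window each of SLC39A8 and SLC39A13. MTF1 had 2, and the 2 windows of SLC30A10 had 0 and 2. In MT2A, 2 of the metal cores shared bases with a hypoxia core; no other window of these genes had such an overlap.

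**Figure D1:**
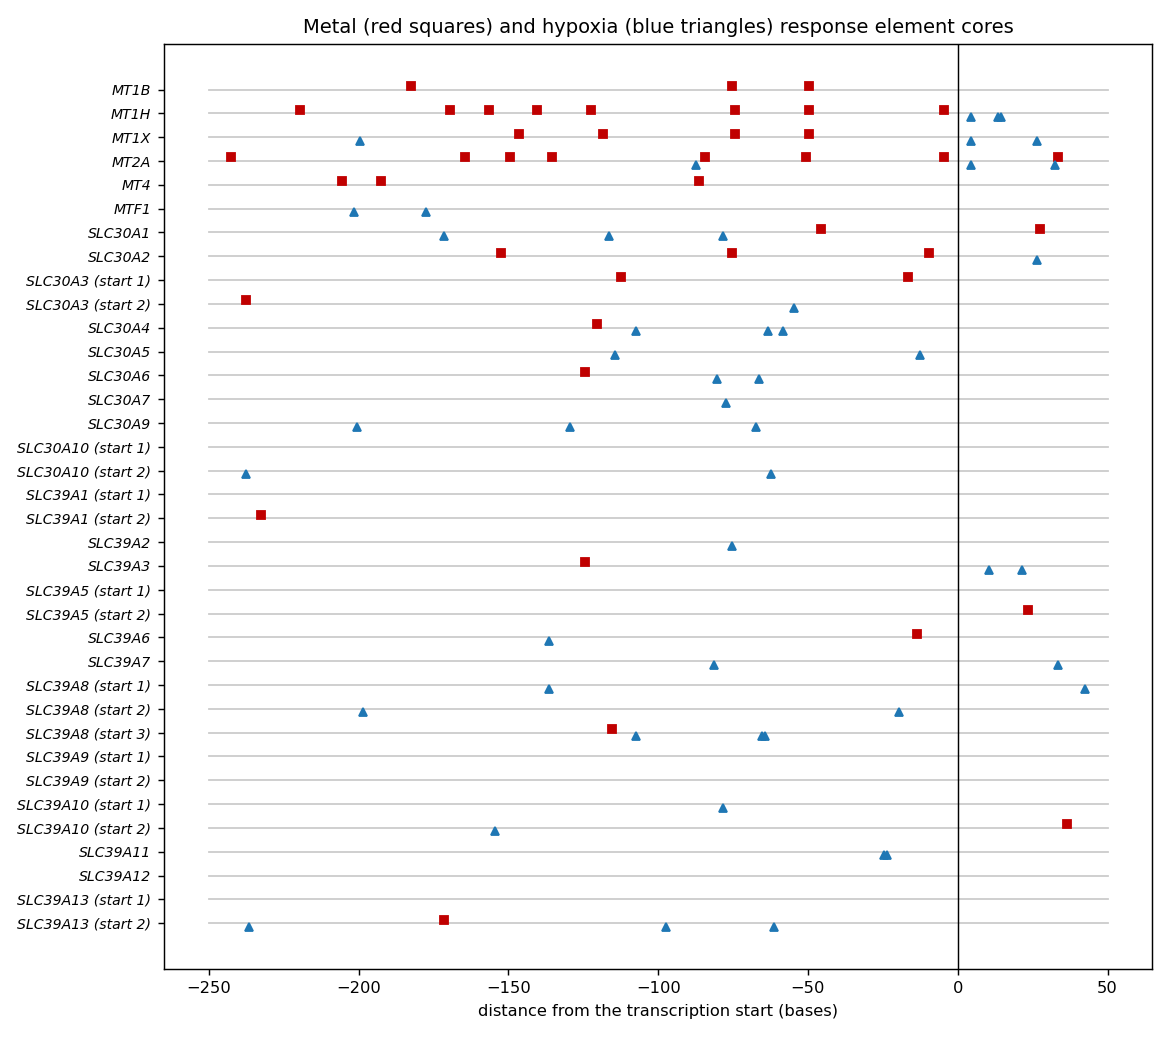
Positions of motif cores in the 36 promoter windows, in bases from the transcription start (vertical line), with metal response element cores as red squares and hypoxia response element cores as blue triangles. The metallothionein lines at the top carry 3 to 8 red squares each, against 0 to 3 on the transporter lines.

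Values are the authors' deposited log2 signals, so a difference of means on this scale is the logarithm of a fold. Differences were tested with limma over all 18404 genes, with n = 4 arrays a group. Adjusted p was computed by the Benjamini-Hochberg method across these genes, and a gene was called below 0.05. Errors beside means are SD and errors beside differences are limma's moderated standard errors, SE. A probe's level says nothing against another probe's, so levels are compared between groups and not between genes; a level is set against the lower quartile of all genes, 6.93, just to mark values near the floor of the arrays. In RNA pooled from microdissected cells, fewer cells of a type and less RNA per cell cannot be told apart. No count or detection call accompanies the values, and precision is limited by how many arrays there are. Of the 35 genes, 6 had a mean at or below that quartile: MT1M, SLC30A2, SLC30A4, SLC30A8, SLC39A2 and SLC39A12.

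Each knockdown lowered its own transcript. With HIF-1α knockdown, 42.5% of the wild type HIF1A signal was left (difference -1.23, SE 0.15, adjusted p = 0.00241). With HIF-2α knockdown, 46.0% of the EPAS1 signal was left (difference -1.12, SE 0.09, adjusted p = 0.000206). HIF-2α knockdown replicate 2 stood apart from the other arrays, at 25.3 on the first principal component against -11.8 to 3.26. The floor of the values was raised on 3 arrays: wild type replicates 1 and 2 and replicate 4 of HIF-2α knockdown. Of 9 hepatocyte markers measured, 0 had a mean at or below the lower quartile of genes, and their means ran from 9.35 to 13.70. Of markers of other cell types, 3 of 7 for fibroblasts, 4 of 6 for endothelium and 2 of 6 for leukocytes were at or below it. PTPRC, the defining leukocyte marker, was among them at 6.52, whereas the leukocyte-list genes LYZ (13.19) and CD68 (10.02) were well above it.

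The 3 comparisons asked how zinc and manganese genes differ when HIF1A or EPAS1 is reduced, and between both knockdowns. In HIF-1α knockdown no member was called against wild type. In HIF-2α knockdown the manganese exporter gene SLC30A10 rose against wild type and no metallothionein was called, although all 10 had a lower mean. Between the knockdowns, MT1G, MT1H and the zinc importer gene SLC39A1 were lower in HIF-2α knockdown. The wild type mean lay between those of the knockdowns for 6 of 10 metallothioneins.

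For HIF-1α knockdown against wild type, 0.815% of all genes were called higher and 0.147% lower, beside 0 of the 35 members in limma's test. An unadjusted p under 0.05 was reached by 7 members, all higher, which is 20% of members against 13.2% of all genes. The arrays of both groups did not overlap for 3 members, MT1H, SLC30A1 and SLC30A10, all higher. Over all genes this held for 5.73% higher and 2.11% lower. The median difference of the members was 0.06 and that of all genes 0.0049. After quantile normalization of all probe sets, which gives each array the same distribution, again 0 members were called, while the split over all genes moved from 150 higher and 27 lower to 140 higher and 114 lower.

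For HIF-2α knockdown against wild type, 1 of 35 members was called, SLC30A10, which was higher; 0.478% of all genes were called higher and 0.31% lower. Unadjusted p was under 0.05 for 10 members, 4 higher and 6 lower, which is 28.6% of members against 12% of all genes. Arrays did not overlap for 2 members higher, SLC30A1 and SLC30A10, and for 2 lower, MT1X and MT4. Over all genes the shares were 3.4% higher and 1.91% lower. The scaling mattered for direction here. After quantile normalization 4 members were called, all lower (MT1X, MT2A, SLC39A1 and SLC39A14), and SLC30A10 was not; over all genes the split moved from 88 higher and 57 lower to 141 higher and 263 lower. With each array centred on its median it was 34 higher and 38 lower, with SLC30A10 the member called.

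For HIF-2α knockdown against HIF-1α knockdown, 3 members were called, all lower in HIF-2α knockdown; 1.8% of all genes were called lower and 0.967% higher. Unadjusted p was under 0.05 for 13 members, 1 higher and 12 lower, which is 37.1% of members against 13.6% of all genes. Arrays did not overlap for 10 members, all lower: MT1B, MT1E, MT1G, MT1H, MT1X, MT4, SLC30A3, SLC39A1, SLC39A11 and SLC39A13. Over all genes the shares were 5.35% lower and 3.73% higher. After quantile normalization 10 members were called, all lower, 7 of them metallothioneins; over all genes the split moved from 178 higher and 331 lower to 342 higher and 546 lower. The comparisons share arrays, so they are not independent of each other.

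**Figure D2:**
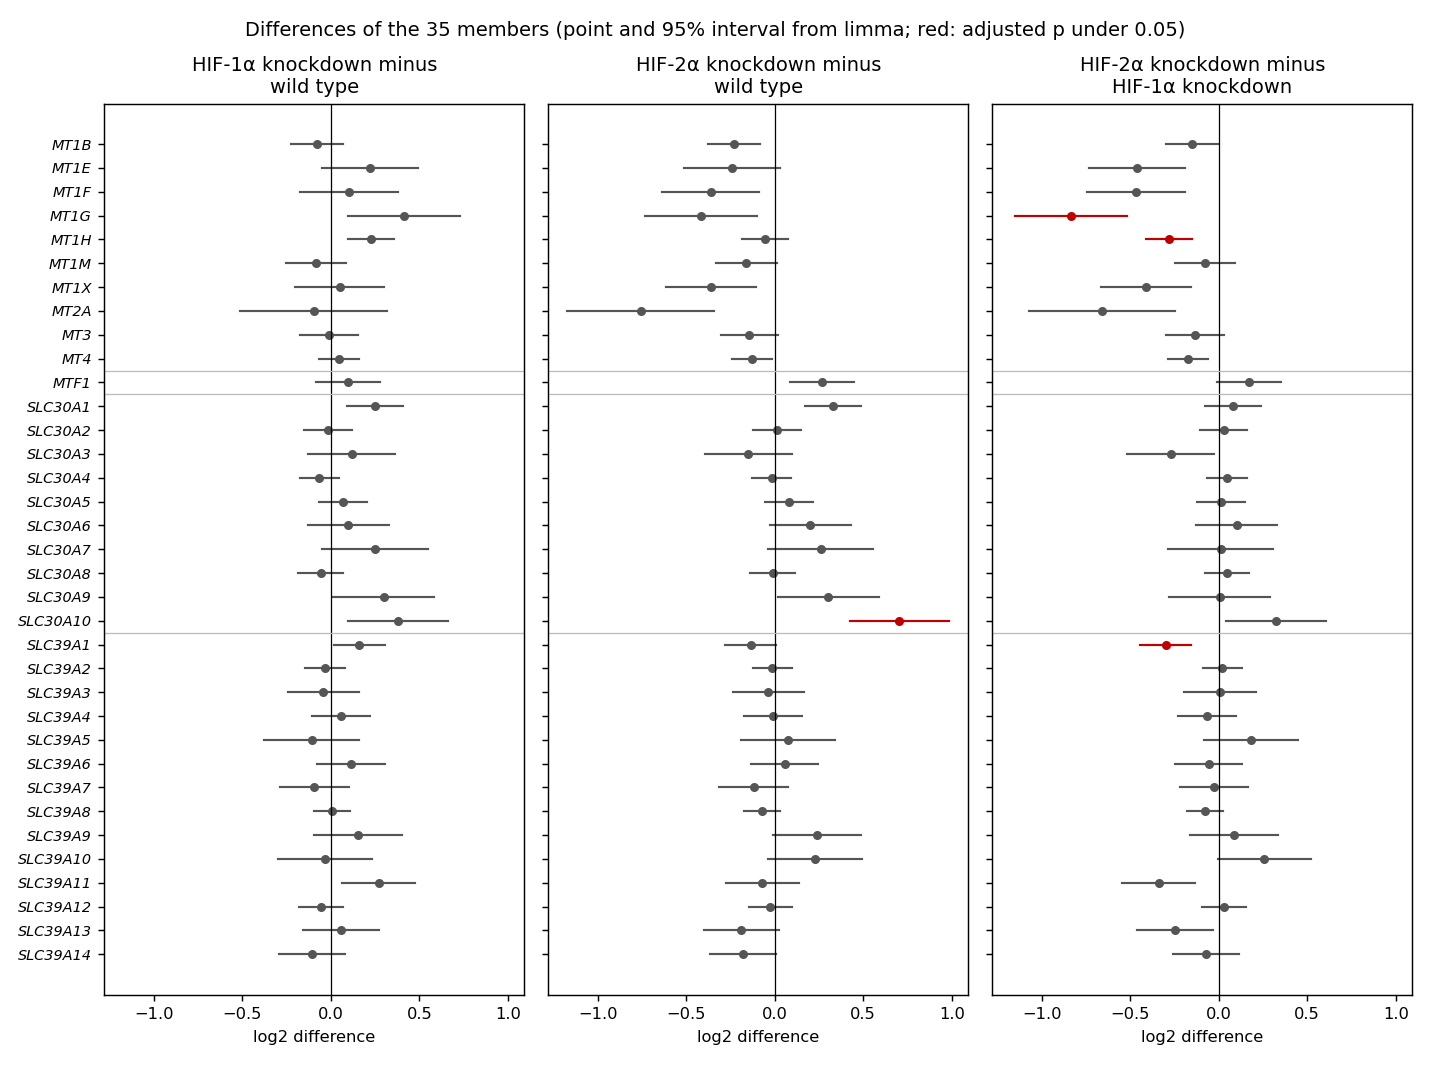
Difference of mean log2 value for each of the 35 genes in the 3 comparisons, with limma's 95% interval (not adjusted for the number of genes); red marks an adjusted p under 0.05. SLC30A10 is red to the right of zero in HIF-2α knockdown against wild type, and MT1G, MT1H and SLC39A1 are red to the left of zero between the knockdowns.

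MTF1, the zinc sensor, was not called in any comparison. It measured 8.47, 8.66, 8.45 and 8.73 on the 4 wild type arrays (8.58 ± 0.14), 8.73, 8.56, 8.66 and 8.74 under HIF-1α knockdown (8.67 ± 0.08), and 8.81, 9.04, 8.82 and 8.69 under HIF-2α knockdown (8.84 ± 0.15). HIF-2α knockdown arrays were mostly at the top, but the groups overlapped, since the lowest of them lay below the highest wild type array. HIF-2α knockdown was 0.26 above wild type (SE 0.08, 95% interval 0.08 to 0.45, adjusted p = 0.185). HIF-1α knockdown was 0.10 above it (SE 0.08, adjusted p = 0.709), and the knockdowns differed by 0.17 (SE 0.08, adjusted p = 0.417). In HIF-2α knockdown the differences of all 10 metallothioneins from wild type were below zero, and a link to MTF1 was not tested.

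The metallothioneins had lower means in HIF-2α knockdown than in either other group, in 10 of 10 genes in both comparisons. The median difference of the 10 was -0.23 from wild type, where the median of all genes was -0.0112, and -0.35 from HIF-1α knockdown, where it was -0.0117. Of all 18404 genes, 10190 had a lower mean than in wild type and 10185 a lower mean than in HIF-1α knockdown. Against wild type 0 of 10 were called by limma, 6 had an unadjusted p under 0.05 and 2 had arrays that did not overlap. Against HIF-1α knockdown 2 were called, 8 had an unadjusted p under 0.05 and 6 did not overlap. In HIF-1α knockdown against wild type the means were higher in 6 of 10 and lower in 4, with a median of 0.05 and 0 called. These genes lie side by side on chromosome 16 and the MT1 and MT2A genes are near-identical in sequence, so a probe set may read transcripts of a neighbour, which was not tested, and the 10 are not independent observations. The all-lower count held after quantile normalization and after median centring as well.

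MT2A, the main metallothionein of human liver, measured 13.28, 13.14, 13.62 and 13.00 in wild type (13.26 ± 0.27), 13.12, 13.04, 13.47 and 13.02 under HIF-1α knockdown (13.16 ± 0.21), and 12.17, 13.16, 12.31 and 12.37 under HIF-2α knockdown (12.50 ± 0.45). Replicates 1, 3 and 4 of HIF-2α knockdown lay below every other array, and replicate 2 lay among the wild type values. The difference from wild type was -0.76 (SE 0.19, 1.69-fold, adjusted p = 0.0954) and that from HIF-1α knockdown -0.66 (SE 0.19, adjusted p = 0.097), neither of them called. After quantile normalization MT2A was called lower against wild type (-0.64, adjusted p = 0.0121) and against HIF-1α knockdown (-1.03, adjusted p = 0.000333), and with array weights likewise (adjusted p = 0.0277 and 0.00414). The second MT2A probe set gave group means of 12.60, 12.53 and 12.03 in the same order of groups, with differences of -0.57 and -0.51. Between HIF-1α knockdown and wild type the first probe set differed by -0.10 (SE 0.19, adjusted p = 0.887), a direction that turned to 0.38 after quantile normalization (adjusted p = 0.116) and to 0.02 without wild type replicate 3.

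MT1G had the largest called difference between the knockdowns. This MT1 isoform gene measured 10.68, 10.89, 11.16 and 10.83 in wild type (10.89 ± 0.20), 11.40, 11.47, 11.27 and 11.08 under HIF-1α knockdown (11.30 ± 0.17), and 10.21, 10.95, 10.34 and 10.38 under HIF-2α knockdown (10.47 ± 0.33). Every HIF-2α knockdown array lay below every HIF-1α knockdown array, while wild type overlapped with both. The difference between the knockdowns was -0.83 (SE 0.15, 1.78-fold, adjusted p = 0.00824). Wild type stood near the middle: HIF-1α knockdown was 0.41 above it (SE 0.15, adjusted p = 0.207) and HIF-2α knockdown differed by -0.42 (SE 0.15, adjusted p = 0.241), so the call between the knockdowns rests on departures to both sides. It was called in 19 of 20 other settings. Without the 3 arrays with a raised floor the difference was -0.80 with an adjusted p of 0.0759.

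MT1H, a further MT1 isoform gene, measured 7.34, 7.46, 7.39 and 7.26 in wild type (7.36 ± 0.08), 7.50, 7.56, 7.72 and 7.57 under HIF-1α knockdown (7.59 ± 0.09), and 7.29, 7.29, 7.26 and 7.38 under HIF-2α knockdown (7.31 ± 0.05). All 4 HIF-1α knockdown arrays lay above all others, and the other groups overlapped. The difference between the knockdowns was -0.28 (SE 0.06, 1.22-fold, adjusted p = 0.0238). HIF-1α knockdown was 0.22 above wild type (SE 0.06, adjusted p = 0.098) and HIF-2α knockdown differed from it by -0.06 (SE 0.06, adjusted p = 0.783). The call between the knockdowns was lost with median centring (adjusted p = 0.09) and without HIF-1α knockdown replicate 2 (0.0574), 3 (0.091) or 4 (0.0576) or HIF-2α knockdown replicate 2 (0.05) or 3 (0.0689), with differences between -0.31 and -0.24 over all settings.

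MT1E and MT1X, both inducible isoform genes, separated the knockdowns without a call. MT1E measured 9.14, 9.03, 9.52 and 9.23 in wild type (9.23 ± 0.21), 9.44, 9.48, 9.57 and 9.31 under HIF-1α knockdown (9.45 ± 0.11), and 8.65, 9.25, 9.14 and 8.92 under HIF-2α knockdown (8.99 ± 0.27). No HIF-2α knockdown array reached the lowest HIF-1α knockdown array, by a difference of means of -0.46 (SE 0.13, adjusted p = 0.0749). MT1X measured 10.25, 10.26, 10.72 and 10.39 in wild type (10.40 ± 0.22), 10.29, 10.52, 10.60 and 10.41 under HIF-1α knockdown (10.45 ± 0.14), and 9.78, 10.21, 9.99 and 10.19 under HIF-2α knockdown (10.04 ± 0.20). The HIF-2α knockdown arrays lay below all 8 others. MT1X differed by -0.41 between the knockdowns (SE 0.12, adjusted p = 0.0897) and by -0.36 from wild type (SE 0.12, adjusted p = 0.199). Against wild type, HIF-1α knockdown differed by 0.22 for MT1E (adjusted p = 0.516) and by 0.05 for MT1X (adjusted p = 0.907), the latter at -0.02 after quantile normalization. Without wild type replicate 3, both were called between the knockdowns (adjusted p = 0.0413 for MT1E and 0.0367 for MT1X). Both were also called after quantile normalization (0.0306 and 0.0175), with array weights (0.0108 and 0.00658) and with the replicate number as a block (0.0376 and 0.039), and MT1E also without HIF-2α knockdown replicate 2 (0.0385).

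Among the other 5 metallothioneins, MT1F, an isoform gene, had a mean of 10.87 in wild type, 10.97 with HIF-1α reduced and 10.51 with HIF-2α reduced. It differed by -0.47 between the knockdowns (SE 0.13, adjusted p = 0.0762) and by -0.36 between HIF-2α knockdown and wild type (SE 0.13, adjusted p = 0.245). MT1B, MT1M, MT3 and MT4 had small differences, from -0.23 to -0.13 for HIF-2α knockdown against wild type and from -0.17 to -0.08 against HIF-1α knockdown. MT3 is known as the metallothionein of the nervous system and MT4 as that of stratified epithelium. MT4 measured 7.36 ± 0.05 in wild type, against 7.23 ± 0.08 in HIF-2α knockdown, and its arrays there lay below those of both other groups.

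**Figure D3:**
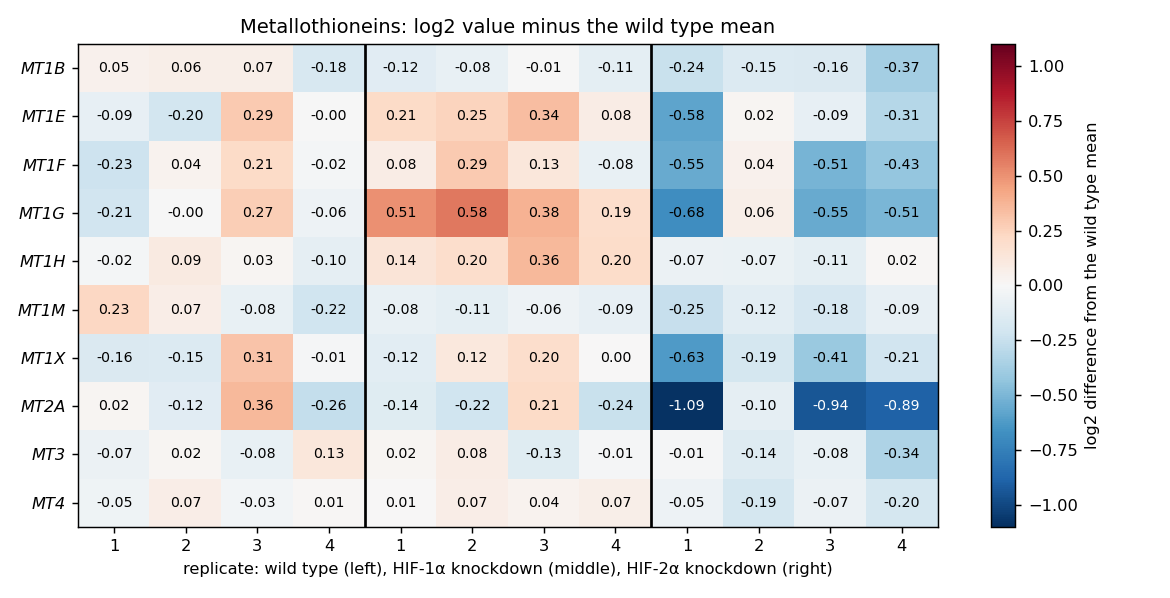
Log2 value of each of the 10 metallothioneins on each array minus the gene's wild type mean, with wild type arrays on the left, HIF-1α knockdown in the middle and HIF-2α knockdown on the right. MT2A reads -1.09, -0.94 and -0.89 on HIF-2α knockdown replicates 1, 3 and 4 and -0.10 on replicate 2.

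HIF-2α knockdown replicate 2, the array that stood apart, was also the highest of its group for 6 of 10 metallothioneins. It exceeded the mean of its other 3 arrays by 0.88 for MT2A, 0.64 for MT1G, 0.54 for MT1F, 0.35 for MT1E and 0.23 for MT1X. Those 3 arrays lay below all wild type arrays for 5 metallothioneins: MT1F, MT1G, MT1X, MT2A and MT4. The share of all genes for which this held was not computed, nor was that for the 6 of 10 above. Neither count is therefore read as particular to metallothioneins. The mean of 15 metal and oxidative stress genes was highest on the same array, at 10.12 against 9.78 to 9.89 on the other 3. That was not particular to this list. The array was also the highest of its group for other metal transport genes (8.73), glucocorticoid and interleukin 6 genes (9.08) and zinc and manganese dependent enzymes (8.29). It was not the highest for ribosomal protein genes or for any list of cell type markers. Leaving out replicate 2 necessarily lowers its group's mean for the genes on which it was highest. The values below therefore describe its weight and are no separate support.

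Without that array, limma called 2 metallothioneins lower in comparison with wild type and 4 lower in comparison with HIF-1α knockdown, with 0.342% and 1.65% of all genes called lower in these fits. Against wild type MT2A then differed by -0.98 (SE 0.14, 1.97-fold, adjusted p = 0.00659) and MT1G by -0.58 (SE 0.11, adjusted p = 0.0391). MT1F stood at -0.50 with an adjusted p of 0.0503. Against HIF-1α knockdown MT1G differed by -0.99 (SE 0.11, 1.99-fold, adjusted p = 0.000485), MT2A by -0.88 (adjusted p = 0.00574), MT1F by -0.60 (adjusted p = 0.00803) and MT1E by -0.55 (adjusted p = 0.0385). The median of the 10 was -0.29 against wild type and -0.37 against HIF-1α knockdown. All 10 differences were below zero in both comparisons, with and without that array. Without it, MT1H and SLC39A1 were no longer called between the knockdowns. With HIF-2α knockdown replicate 1 left out instead, MT2A differed by -0.645 from wild type (adjusted p = 0.213). In that fit no member was called against wild type, and MT1G, MT1H and SLC39A1 were called between the knockdowns.

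Among the exporters, SLC30A10 had the largest difference. It encodes the plasma membrane manganese exporter of liver and gut, whose loss causes manganese overload in humans. It measured 9.20, 9.21, 9.13 and 8.97 in wild type (9.13 ± 0.11), 9.65, 9.72, 9.40 and 9.26 under HIF-1α knockdown (9.51 ± 0.22), and 10.19, 9.90, 9.56 and 9.68 under HIF-2α knockdown (9.83 ± 0.28). All 8 knockdown arrays lay above all wild type arrays, and both knockdowns overlapped. In HIF-2α knockdown it was 0.70 above wild type (SE 0.13, 1.63-fold, 95% interval 0.42 to 0.98, adjusted p = 0.0247). In HIF-1α knockdown it was 0.38 above (SE 0.13, 95% interval 0.10 to 0.66, adjusted p = 0.189). Tested directly, the knockdowns differed by 0.32 (SE 0.13, adjusted p = 0.272), which was not called.

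The SLC30A10 call in HIF-2α knockdown was close to the threshold. It was lost after quantile normalization (0.62, adjusted p = 0.0561), with array weights (0.70, 0.0942) and without the 3 arrays with a raised floor (0.83, 0.147). It was also lost without wild type replicate 1 (0.73, 0.0538), 2 (0.73, 0.0529) or 4 (0.65, 0.0878) or HIF-2α knockdown replicate 1 (0.58, 0.0569) or 2 (0.68, 0.0617). The difference stayed between 0.58 and 0.83 in all 20 other settings.

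SLC30A1, the plasma membrane zinc exporter that MTF1 controls, had higher means in both knockdowns. It measured 8.50, 8.74, 8.50 and 8.70 in wild type (8.61 ± 0.13), 8.82, 8.96, 8.84 and 8.82 under HIF-1α knockdown (8.86 ± 0.07), and 8.87, 9.07, 8.83 and 8.99 under HIF-2α knockdown (8.94 ± 0.11). All 8 knockdown arrays lay above all wild type arrays, without a call. HIF-2α knockdown was 0.33 above wild type (SE 0.07, adjusted p = 0.0554) and HIF-1α knockdown 0.25 above it (SE 0.07, adjusted p = 0.122), and the knockdowns differed by 0.08 (SE 0.07, adjusted p = 0.775). With array weights it was called in HIF-1α knockdown (adjusted p = 0.0341). In HIF-2α knockdown the differences of SLC30A1 and of the metallothioneins from wild type had opposite signs. Neither SLC30A1 nor any metallothionein was called there by limma, and the part of MTF1 was not tested.

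The other 8 exporters of the family were not called. SLC30A9, linked to mitochondrial zinc, had the next largest differences from wild type, 0.30 in each knockdown (adjusted p = 0.348 for HIF-1α and 0.378 for HIF-2α). SLC30A7, which loads zinc into the Golgi, differed by 0.25 and 0.26 (adjusted p = 0.499 and 0.497). SLC30A5 and SLC30A6, which together supply zinc to enzymes of the secretory pathway, differed by 0.07 and 0.10 in HIF-1α knockdown and by 0.08 and 0.20 in HIF-2α knockdown. SLC30A3, the synaptic vesicle transporter, separated the knockdowns without overlap by -0.27 (SE 0.11, adjusted p = 0.303). SLC30A2, SLC30A4 and SLC30A8, the last of them the transporter of insulin granules, lay near the floor, with differences between -0.06 and 0.05. Over the 10 genes the median difference was 0.11 in HIF-1α knockdown, 0.14 in HIF-2α knockdown and 0.04 between them.

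**Figure D4:**
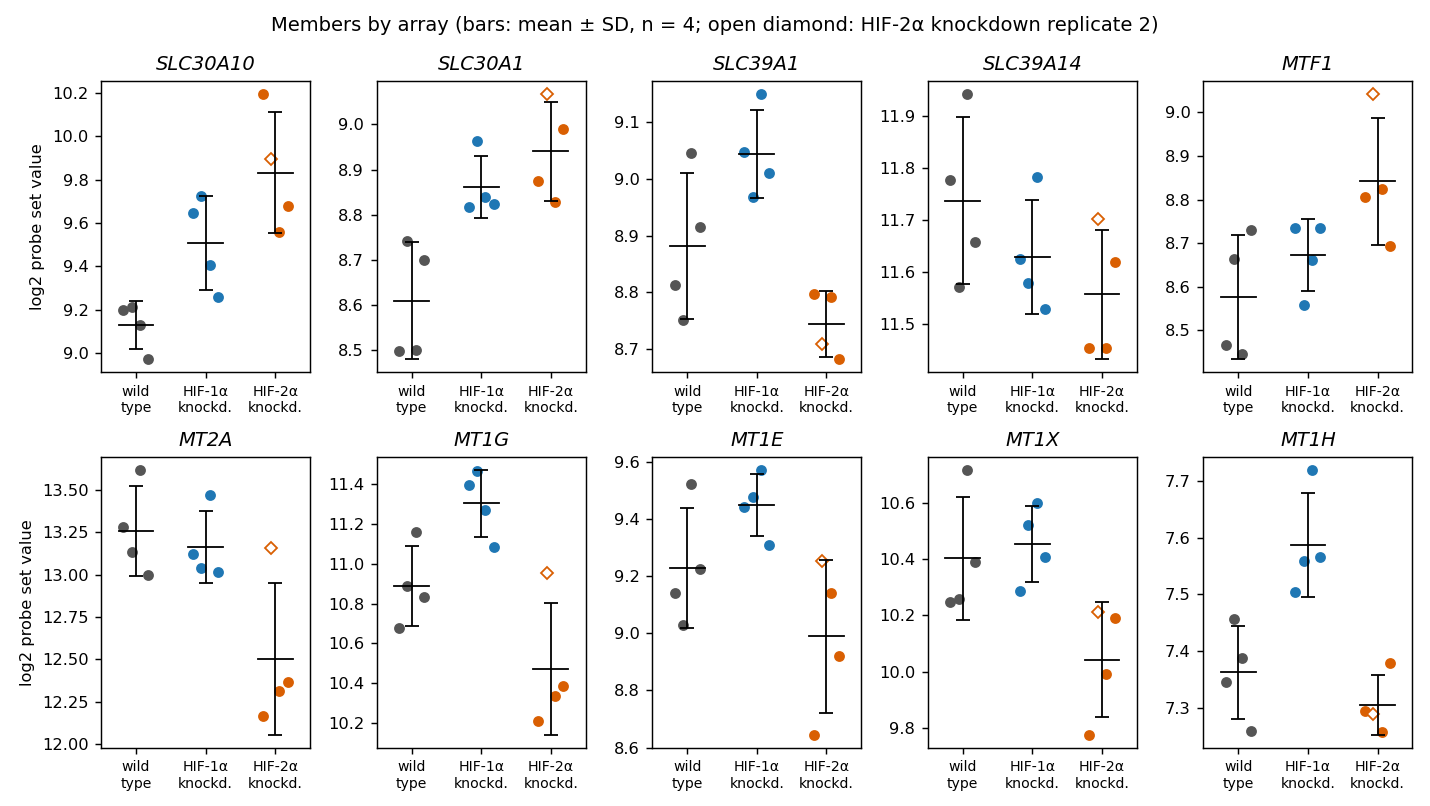
Log2 values of 10 genes on each array (dots), with group means and SD (bars, n = 4); the open diamond is HIF-2α knockdown replicate 2, and each panel has its own scale. SLC30A10 and SLC30A1 sit above wild type on all 8 knockdown arrays, and MT2A is lowest on 3 HIF-2α knockdown arrays, with the diamond at 13.16.

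Among the importers, SLC39A1, a widely expressed zinc importer of the plasma membrane, was the member called. It measured 8.81, 8.75, 9.05 and 8.92 in wild type (8.88 ± 0.13), 9.05, 8.97, 9.15 and 9.01 under HIF-1α knockdown (9.04 ± 0.08), and 8.80, 8.71, 8.79 and 8.68 under HIF-2α knockdown (8.75 ± 0.06). The knockdowns did not overlap and wild type overlapped with both. HIF-2α knockdown lay below HIF-1α knockdown by a difference of -0.30 (SE 0.07, 1.23-fold, adjusted p = 0.0303). Against wild type the difference was 0.16 in HIF-1α knockdown (adjusted p = 0.302) and -0.14 in HIF-2α knockdown (adjusted p = 0.445). The call was lost with median centring (adjusted p = 0.0575), without the raised-floor arrays (0.0576), without HIF-1α knockdown replicate 1 (0.072), 2 (0.0525), 3 (0.121) or 4 (0.0676), and without HIF-2α knockdown replicate 2 (0.0696), 3 (0.0545) or 4 (0.101). Its difference ran from -0.32 to -0.26 over all settings.

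SLC39A14, which takes up zinc, manganese and iron in hepatocytes, measured 11.78, 11.57, 11.94 and 11.66 in wild type (11.74 ± 0.16), 11.62, 11.58, 11.78 and 11.53 under HIF-1α knockdown (11.63 ± 0.11), and 11.45, 11.70, 11.45 and 11.62 under HIF-2α knockdown (11.56 ± 0.12). The 3 groups overlapped. Its difference from wild type was -0.11 in HIF-1α knockdown (95% interval -0.29 to 0.08, adjusted p = 0.684) and -0.18 in HIF-2α knockdown (95% interval -0.37 to 0.01, adjusted p = 0.44). The knockdowns differed by -0.07 (SE 0.09, adjusted p = 0.842). After quantile normalization SLC39A14 was called lower in HIF-2α knockdown, at -0.21 from wild type (adjusted p = 0.0162) and -0.19 from HIF-1α knockdown (adjusted p = 0.0155).

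The other 12 importers were not called. SLC39A11, found in the Golgi, was 0.27 higher in HIF-1α knockdown than in wild type (SE 0.10, adjusted p = 0.204) and separated the knockdowns without overlap by -0.34 (SE 0.10, adjusted p = 0.0844). SLC39A13, which releases zinc from the early secretory pathway, separated them by -0.25 (SE 0.10, adjusted p = 0.272). SLC39A6 and SLC39A10, which form a pair at the plasma membrane, differed from wild type by 0.06 and 0.23 in HIF-2α knockdown (adjusted p = 0.868 and 0.507). SLC39A8, the close relative of SLC39A14 that also carries manganese, differed by 0.01 in HIF-1α knockdown and by -0.07 in HIF-2α knockdown (95% interval -0.17 to 0.03). SLC39A4, the intestinal zinc importer, differed by 0.06 and -0.01. Over the 14 genes the median difference was -0.01, -0.03 and -0.04 in the 3 comparisons. Of the 14 means, 10 were lower in HIF-2α knockdown than in wild type, beside 10190 of all 18404 genes, whose median was -0.0112.

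Of 28 other metal transport and chaperone genes listed, 26 were measured and 2 were called in at least 1 comparison. Unmeasured genes of this and later lists were not analysed here. The share of all genes called in at least 1 comparison was not computed, so counts pooled over comparisons have no such share beside them. STEAP2, a metalloreductase for iron and copper, was higher in HIF-2α knockdown by 0.41 than in wild type (SE 0.07, adjusted p = 0.0201) and by 0.32 than in HIF-1α knockdown (SE 0.07, adjusted p = 0.0308). These calls held in 12 and 10 of 20 other settings, with differences of at least 0.27. The first was lost with median centring (adjusted p = 0.0613), array weights (0.0517), the 2 groups alone (0.0921) or the raised-floor arrays left out (0.17), and without wild type replicate 1, 2 or 4 or HIF-2α knockdown replicate 1 (up to 0.0742). The second was lost with median centring (adjusted p = 0.0575), the 2 groups alone (0.0607) or the raised-floor arrays left out (0.128), and without any 1 array of HIF-1α knockdown or HIF-2α knockdown replicate 1, 2 or 4 (up to 0.121). SLC40A1, ferroportin, the iron exporter that has also been linked to manganese and zinc, was lower in HIF-2α than in HIF-1α knockdown by a difference of -0.72 (SE 0.13, 1.65-fold, adjusted p = 0.0105), a call kept in 19 of 20 settings and lost without the raised-floor arrays (adjusted p = 0.057). The list's median differences in the 3 comparisons were 0.05, 0.01 and -0.02, and -0.01, -0.03 and -0.01 after quantile normalization.

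Zinc and manganese dependent enzymes, 27 of 30 measured, gave 1 call in HIF-1α knockdown and 1 between the knockdowns. CPB2, a zinc carboxypeptidase of plasma made by hepatocytes, rose in HIF-1α knockdown, by 0.69 (SE 0.10, adjusted p = 0.00763). ARG2, the mitochondrial manganese arginase, was lower in HIF-2α than in HIF-1α knockdown by a difference of -0.65 (SE 0.15, adjusted p = 0.0308). The first call held in 19 of 20 other settings and was lost without the raised-floor arrays (adjusted p = 0.151). The second held in 14 and was lost with median centring (0.0575), without the raised-floor arrays (0.099) and without HIF-1α knockdown replicate 2, 3 or 4 or HIF-2α knockdown replicate 4 (differences -0.66 to -0.53, adjusted p up to 0.121). The list's medians were 0.02, -0.02 and -0.04, the first of them at -0.002 after quantile normalization.

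Genes that share inducers with the metallothioneins were counted beside them. Of 15 metal and oxidative stress genes measured of 18, HSPB1 and BAG3, a small heat shock protein and a heat shock co-chaperone, were lower in HIF-2α than in HIF-1α knockdown. HSPB1 differed by -0.44 (SE 0.08, adjusted p = 0.00851), called in all 20 other settings. BAG3 differed by -0.37 (SE 0.09, adjusted p = 0.0464), a call kept in 9 of 20 and lost after quantile normalization (adjusted p = 0.0596), with median centring (0.0632), without the raised-floor arrays (0.15) and without wild type replicate 1, any HIF-1α knockdown array or HIF-2α knockdown replicate 2, 3 or 4 (differences -0.39 to -0.33, adjusted p 0.0503 to 0.133). The medians of that list were 0.11 for HIF-1α knockdown, -0.08 for HIF-2α knockdown and -0.10 between them. Of 21 glucocorticoid and interleukin 6 genes measured of 23, TAT, a glucocorticoid-induced aminotransferase, was lower in HIF-2α than in HIF-1α knockdown (difference -0.29, SE 0.06, adjusted p = 0.0193), except without HIF-1α knockdown replicate 2 or 3, HIF-2α knockdown replicate 4 or the raised-floor arrays (-0.30 to -0.27, adjusted p up to 0.0726). The 3 fibrinogen genes of the same list were higher there, FGB by 2.38, FGA by 1.55 and FGG by 1.27. Against wild type all 3 were called lower in HIF-1α knockdown, FGB by a difference of -1.75, FGA of -1.21 and FGG of -0.68. In HIF-2α knockdown FGB (0.63) and FGG (0.60) were called higher than in wild type, and FGA was not called. These 2 calls held in 15 and 8 of 20 other settings, and that of FGG in HIF-1α knockdown in 14. TAT and the fibrinogens were the genes of the list called in any comparison, and its medians were 0.01, -0.01 and -0.03, the first at -0.02 after quantile normalization.

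Ribosomal protein genes, 32 of 39 measured and taken as a measure of how RNA was amplified, had a median difference of -0.43 in HIF-1α knockdown against wild type, -0.09 in HIF-2α knockdown and 0.35 between the knockdowns. Their mean ran from 11.92 to 12.45 over wild type arrays, from 11.63 to 11.94 in HIF-1α knockdown and from 11.76 to 12.28 in HIF-2α knockdown. Hepatocyte markers had medians of -0.47, -0.14 and 0.37. In HIF-1α knockdown, 13 ribosomal protein genes and 6 hepatocyte markers had all arrays below all wild type arrays, as did 2.11% of all genes. RPL11 was called lower in HIF-1α knockdown than in wild type (-0.78, limma adjusted p = 0.0368) and higher in HIF-2α than in HIF-1α knockdown (0.76, 0.0206). These calls held in 11 and 14 of 20 other settings. Of the hepatocyte markers FGB was called, with the differences given above. After quantile normalization the medians were smaller with the same signs, -0.15, -0.04 and 0.15 for ribosomal protein genes and -0.18, -0.05 and 0.13 for hepatocyte markers. Between the knockdowns both lists thus had medians above zero while all 10 metallothionein means were below it. Of the markers of other cell types, 1 of 7 for fibroblasts, 0 of 6 for endothelium and 1 of 6 for leukocytes were called in at least 1 comparison. PDGFRB, a growth factor receptor of fibroblasts and stellate cells, was lower in HIF-2α knockdown than in wild type (difference -0.40, SE 0.06, adjusted p = 0.0109) and than in HIF-1α knockdown (-0.35, SE 0.06, adjusted p = 0.0105). CD14, a co-receptor of monocytes for bacterial lipopolysaccharide, was lower in HIF-2α than in HIF-1α knockdown (-0.39, SE 0.07, adjusted p = 0.00899). These directions are those of the metallothioneins; without the raised-floor arrays the 3 calls were lost (adjusted p = 0.0974, 0.0553 and 0.0555), and the first also with the 2 groups alone (0.0602). The mean of the fibroblast markers ran from 6.96 to 7.07 over the wild type and HIF-1α knockdown arrays together and from 6.88 to 6.99 over HIF-2α knockdown arrays. In the order wild type, HIF-1α and HIF-2α knockdown, that of the endothelial markers ran from 6.92 to 7.05, 7.01 to 7.04 and 6.92 to 6.95, and that of the leukocyte markers from 8.40 to 8.54, 8.42 to 8.56 and 8.32 to 8.45. The part of any of these lists in the metallothionein and transporter values was not tested.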

How the data were processed

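The deposited table holds 32321 probe sets by 12 Affymetrix arrays. The values are the authors' deposited log2 signals; the base was inferred from their range, 5.94 to 15.1, and how they were background-corrected, summarized and normalized is not given in the sources used here. Of the probe sets, 19158 had 1 gene symbol in the platform annotation, 1388 several and 11775 none; 19128 symbols were updated by Entrez identifier through RefSeq GRCh38.p14 and 30 kept as given. MT1L appeared in a probe set shared with another gene and was outside the rule.

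limma 3.58.1 in R 4.3.3 (lmFit on 1 mean per group, eBayes) was run on all 18404 genes and all arrays. The script was tested on generated data with known answers before use.

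Members given in full were those called, those without overlap and a difference of at least 0.4, and MTF1, MT2A, SLC30A1, SLC30A10 and SLC39A14 for their roles. The members and lists were chosen with earlier results of these data known. Same-numbered replicates of different groups correlated at r from -0.17 to 0.64, and 5 of 12 pairs were over 0.1. Differently numbered replicates ran from -0.60 to 0.57, so these values do not settle whether arrays are paired. The replicate number is not stated to pair arrays and was not taken as a pair. Calls with it as a block are given below.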

Additional observations from a re-analysis of the deposited data

Results flagged for a closer look

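SLC30A1 on HIF-1α knockdown replicate 2 lay apart from the other 3 arrays of its group, at 8.96 against 8.82 to 8.84, a gap of 0.843 of the group's range. Its value remained within the range of the HIF-2α knockdown arrays. Among the 36 groups of 4 arrays examined in this way, chance alone would single out about 1 in 20.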

How the results depend on the processing

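Against 0 members called in HIF-1α knockdown versus wild type, array weights gave 1 (SLC30A1, higher), and each other setting, leaving out single arrays included, gave 0. Against 1 in HIF-2α knockdown versus wild type, quantile normalization gave 4, the replicate number as a block 2 (SLC30A1 with an adjusted p of 0.0179, and SLC30A10), removal of the raised-floor arrays 0, and leaving out each array 0 to 2: 0 without wild type replicate 1, 2 or 4 or HIF-2α knockdown replicate 1, and 2 without HIF-2α knockdown replicate 2. Array weights gave 1 there, MT2A, lower, in place of SLC30A10. Against 3 between the knockdowns, quantile normalization gave 10, median centring 1, array weights 7, the replicate block 7 (MT1E, MT1F, MT1G, MT1H, MT1X, SLC39A1 and SLC39A11), removal of the raised-floor arrays 1 (MT1H), and leaving out each array 1 to 5, with 5 without wild type replicate 3 and 1 without HIF-1α knockdown replicate 2, 3 or 4 or HIF-2α knockdown replicate 3. The block moved calls over all genes to 116 higher and 86 lower in HIF-2α knockdown and to 194 and 368 between the knockdowns. Array weights moved them to 509 higher and 96 lower in HIF-1α knockdown and to 74 and 45 in HIF-2α knockdown. Between the knockdowns they were 363 higher and 617 lower with array weights, and 206 and 403 without wild type replicate 3. Calls among the members are to be read beside these changes over all genes.

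The HIF1A difference was -1.24 without the raised-floor arrays (adjusted p = 0.103). In HIF-1α knockdown against wild type, the sign of MT1X turned without the raised-floor arrays (-0.10) and with quantile normalization (-0.0162), and it ran from -0.0017 to 0.15 on leaving out single arrays. That of MT2A turned after quantile normalization (0.38) and without wild type replicate 3 (0.0236), with -0.20 to 0.0236 on leaving out single arrays. The cause was not tested. Of 600 values of the 10 genes under other settings given in full, 549 kept direction and side of the threshold, 24 lost a call, 22 gained one and 5 turned. The mean of probe sets, the filter at the lower quartile and the fit on the groups compared alone moved no count of calls among the members by over 1.5 times. Near-floor signals and 4 arrays a group limit what could be seen.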

Other observations

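Other metallothionein-like probe sets, outside the rule and chosen after their values were seen, were also lower in HIF-2α than in HIF-1α knockdown. MT1HL1 differed by -0.43 (adjusted p = 0.00609), MT1P3 by -0.40 (adjusted p = 0.00961), MT1DP by -0.43 (adjusted p = 0.0148), MT1JP by -0.35 (adjusted p = 0.00919) and MT1IP by -0.28 (adjusted p = 0.0249), all from limma over all genes. In HIF-2α knockdown none of them was called against wild type. MT1HL1 differed by -0.29 there (limma adjusted p = 0.0923), MT1DP by -0.16 (0.503), MT1IP by -0.08 (0.687), MT1JP by -0.07 (0.719) and MT1P3 by -0.07 (0.788). All had higher means in HIF-1α knockdown than in wild type. MT1P3 was 0.33 higher (adjusted p = 0.0488), MT1DP 0.28 (0.142), MT1JP 0.27 (0.0587), MT1IP 0.20 (0.133) and MT1HL1 0.14 (0.453). MT1HL1, MT1P3, MT1DP, MT1JP and MT1IP are annotated as pseudogenes or like genes of the family. Their probe sets may read transcripts of the coding genes, which was not tested.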
